A study of Mus musculus with 12 samples.

Results

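The vascular endothelial growth factor (VEGF) genes described here are 9 of the 25116 genes in the deposited mouse table, chosen by symbol: 5 ligands (Vegfa, Vegfb, Vegfc, Vegfd and Pgf), 2 receptor tyrosine kinases (Kdr and Flt1) and 2 neuropilin co-receptors (Nrp1 and Nrp2). All 9 had enough reads to be among the 15199 genes tested. Bulk RNA sequencing was done on tumours of E0771 cells, which the labels call a triple-negative mouse breast cancer line, taken at day 22 from the mammary fat pads of Tie2CreER;ERKi C57BL/6J mice. The host mice of both groups carried both transgenes, a tamoxifen-activated Cre under the Tie2 promoter and a knock-in of endorepellin. The 7 induced tumours came from mice given tamoxifen before the tumour cells, and the 5 control tumours came from mice given a control injection whose content the labels do not name. Tamoxifen itself and endorepellin cannot be told apart in this design, and Tie2 is known to be active in some blood-derived cells besides the endothelium. The ages of the mice are not in the labels. The text on culture that comes with the labels describes fat-cell differentiation of another cell line, so the groups rest on the sample titles and the treatment label.

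VEGF ligands are secreted dimers that bind receptor tyrosine kinases on endothelial cells. VEGF-A signals for growth and permeability mainly through VEGFR2, the product of Kdr. VEGFR1, the product of Flt1, binds VEGF-A tightly with weak kinase output and also binds VEGF-B and placental growth factor, while VEGF-C and VEGF-D act on lymphatic vessels through VEGFR3, the product of Flt4. Endorepellin, the C-terminal part of perlecan, is known to bind VEGFR2 and VEGFR1 on endothelial cells and to dampen their signalling. That is the setting of the question addressed here: whether the transcripts of these ligands and receptors differed between the induced and the control tumours. The counts do not show whether the host vessels made endorepellin.

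Total counts were 18993192 to 28372821 per tumour. Per the labels the tumours are of a breast cancer line, yet the epithelial markers were low: Krt8 lay at 0.828 to 2.29 CPM (counts scaled by library size to a common total) and Epcam at 0.140 to 1.36 CPM over all 12 tumours, and Krt7, Krt18 and Krt19 had too few counts to be tested. Endothelial markers were measured in every tumour, with Pecam1 at 24.1 to 46.1 CPM and Cdh5 at 31.5 to 62.1 CPM. The first principal component of all tumours held 50.6% of the variance, and on it control 1, control 2, induced 3 and induced 4 lay apart from the other 8 tumours, with loadings of 0.284 to 0.524 against -0.269 to -0.0429. Results that rest on these 4 tumours are given with and without them. In whole tumours, fewer cells of a type and less RNA per cell cannot be told apart.

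None of the 9 genes passed the test between induced and control tumours, and neither did any other gene. The edgeR quasi-likelihood test with Benjamini-Hochberg adjustment called 0 of 15199 genes (0%), with a smallest adjusted p of 0.9999, and 0 were called by DESeq2 or limma-voom. At an unadjusted p under 0.05, 324 of 15199 genes (2.13%) were counted by edgeR and 996 of the same 15199 by limma-voom. DESeq2 counted 607 of the 24895 genes to which it gave a p. Of those by edgeR, 90 (0.592%) had higher and 234 (1.54%) had lower levels in induced tumours, and the VEGF genes gave 1 of 9, Flt1, which was higher. Among the 9 genes, 5 had higher and 4 had lower fitted levels in induced tumours, beside 7573 higher and 7626 lower among all genes tested. Their median log2 fold change was 0.02, beside -0.00083 over all genes tested, and their median absolute log2 fold change was 0.107, beside 0.109. None of the 9 had groups that did not overlap, which 9 of the 15199 genes (0.0592%) had. On simulated counts whose gene means and depths were those of the tumours, the same test called 60 of 100 genes changed 2-fold and 79 of 93 changed 4-fold, with each gene drawn independently. The simulated counts thus lacked any pattern shared between genes, whereas the first principal component of the tumours held 50.6% of the variance. These shares therefore do not give what the test would find in the tumours.

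**Figure D1:**
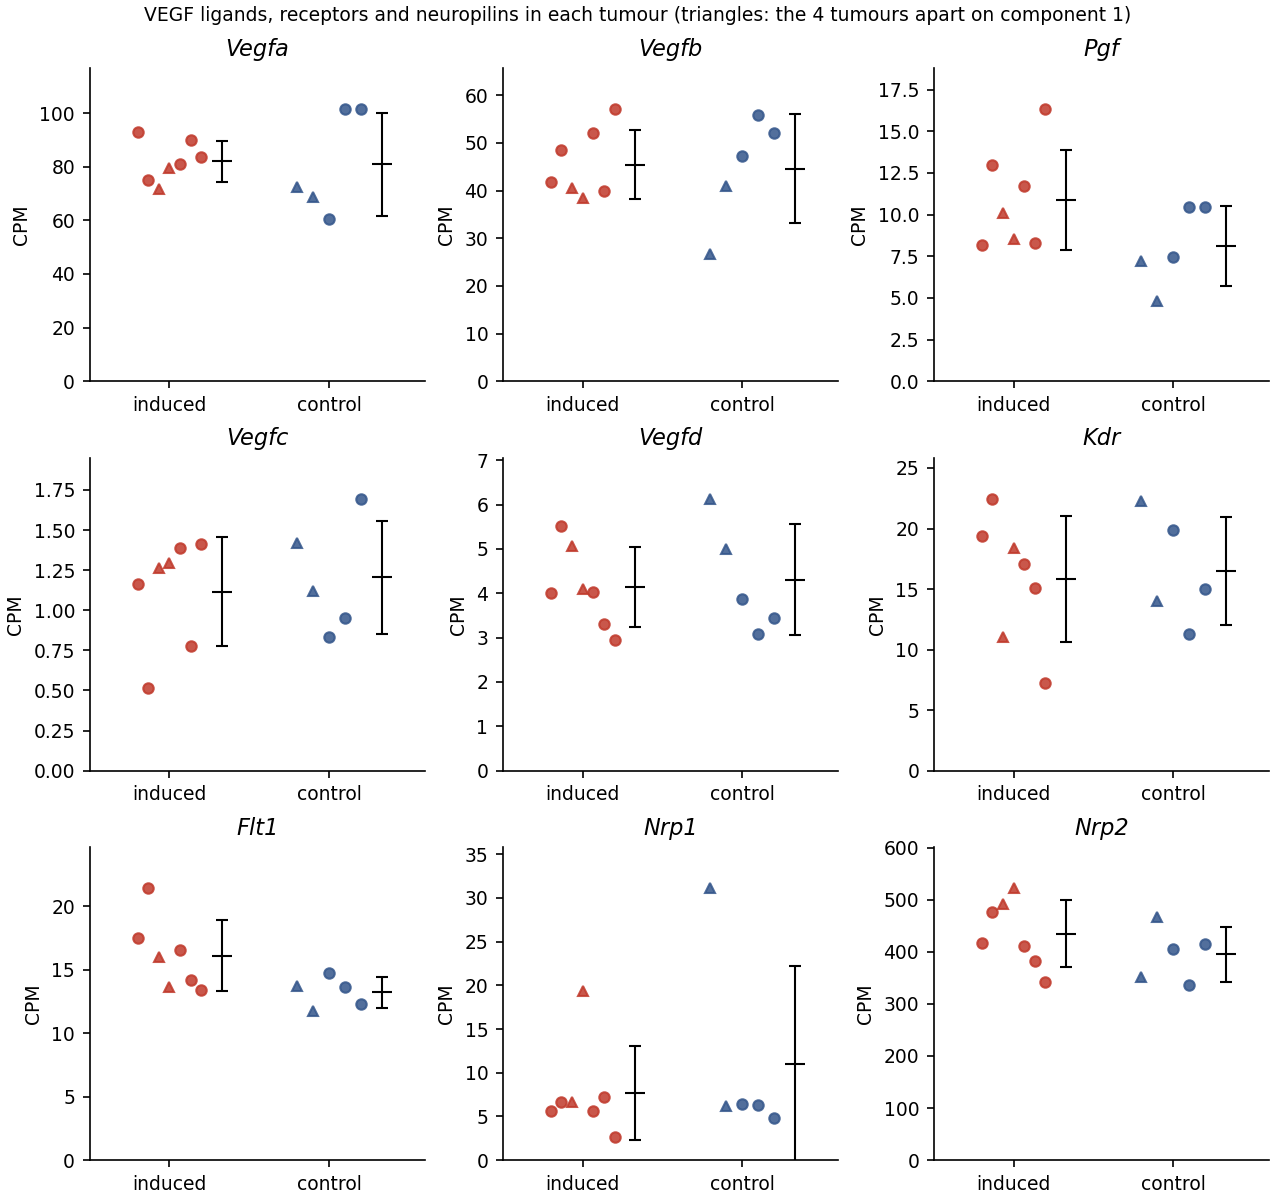
Levels of the 9 VEGF genes in each tumour, in CPM on linear axes that start at 0. Each point is 1 tumour (7 induced on the left, 5 control on the right), triangles mark control 1, control 2, induced 3 and induced 4, and the bars beside the points give the mean ± SD; the lower bar of Nrp1 in control tumours reaches below 0 and is not drawn in full. The groups overlap for every gene, and for Nrp1 induced 4 and control 1 stand far above all other tumours.

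Hspg2, the gene of perlecan and so of endorepellin, was at 536 ± 100.1 CPM in induced tumours (SD, n = 7) and 550 ± 81.4 CPM in control tumours (SD, n = 5). The log2 fold change was -0.04 ± 0.14 (SE) with an adjusted p of 0.9999 in edgeR, and the exact permutation test gave a 95% interval of -0.36 to 0.27 for the difference in mean log2 CPM. The sources used here do not say whether reads from the knock-in would be assigned to this gene, so its count does not check the induction.

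Vegfa, the main ligand of vessel growth and a known target of hypoxia, lies on chromosome 17 at 46016993 to 46032369 (minus strand, GRCm38). It was measured at 71.8 CPM in the lowest, 81.1 in the median and 92.9 in the highest induced tumour, and at 72.6, 68.8, 60.5, 102 and 101 CPM in control tumours 1 to 5. All 7 induced tumours lay inside the range of the controls, which spread wider on both sides. The means were 82.0 ± 7.58 CPM in induced and 81.0 ± 19.2 CPM in control tumours (SD, n = 7 and n = 5), with a log2 fold change of 0.02 ± 0.13 (SE; unadjusted p = 0.889 and adjusted p = 0.9999 in edgeR). By exact permutation the 95% interval of the difference ran from -0.27 to 0.35, which is 0.829 to 1.27 as a ratio. The counts per gene cannot separate the splice forms of Vegfa, which differ in how they bind heparan sulphate.

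Vegfb, a ligand of VEGFR1 known for its role in metabolic tissues, lies on chromosome 19 at 6982473 to 6987651 (minus strand). It was at 38.4 CPM in the lowest, 41.8 in the median and 57.1 in the highest induced tumour, and at 26.7, 41.0, 47.3, 55.8 and 52.0 CPM in control tumours 1 to 5. The groups overlapped and the controls spread wider, with control 1 alone below the induced tumours and induced 7 alone above the controls. The log2 fold change was 0.03 ± 0.17 (SE), and the interval by exact permutation was -0.32 to 0.49.

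Pgf encodes placental growth factor, which binds VEGFR1 and not VEGFR2, and lies on chromosome 12 at 85166635 to 85177790 (minus strand). It was at 8.19 CPM in the lowest, 10.1 in the median and 16.3 in the highest induced tumour, and at 7.21, 4.83, 7.48, 10.5 and 10.5 CPM in control tumours 1 to 5. All 7 induced tumours lay above the control mean and 3 lay above the highest control, while the other 4 fell within the range of the controls. The means were 10.9 ± 3.02 CPM in induced and 8.09 ± 2.40 CPM in control tumours (SD). The log2 fold change of 0.43 ± 0.23 (SE) was the highest of the 9, with an unadjusted p of 0.0855 in edgeR and an adjusted p of 0.9999. The exact permutation test gave a difference of 0.43 with a 95% interval of -0.07 to 0.96 and p = 0.101. Without the 4 tumours that lay apart, the log2 fold change was 0.27 with an unadjusted p of 0.269, and without control 2 alone it was 0.28. The authors' deposited table gave Pgf a log2 fold change of 0.43 and an unadjusted p of 0.0720.

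The ligands of lymphatic vessels had few counts. Vegfc, on chromosome 8 at 54077606 to 54187096 (plus strand), had only 10 to 41 counts per tumour. That was 0.515 CPM in the lowest, 1.26 in the median and 1.41 in the highest induced tumour, and 1.42, 1.12, 0.831, 0.953 and 1.70 CPM in control tumours 1 to 5. The log2 fold change was -0.11 ± 0.30 (SE), with an interval of -0.73 to 0.47 by exact permutation. Vegfd, on the X chromosome at 164373378 to 164402650 (plus strand), was at 2.94 CPM in the lowest, 4.02 in the median and 5.52 in the highest induced tumour, and at 6.14, 5.01, 3.86, 3.09 and 3.44 CPM in control tumours 1 to 5. Its log2 fold change was -0.06 ± 0.22 (SE), with an interval of -0.50 to 0.41 by exact permutation. The sign for Vegfd was not stable: the value was 0.18 without the 4 tumours that lay apart, 0.094 without control 1 and 0.0078 without induced 7. Flt4, the receptor of both ligands, had 23 to 60 counts per tumour and was at 1.96 ± 0.37 CPM in induced and 1.64 ± 0.30 CPM in control tumours, a log2 fold change of 0.26 ± 0.22 (SE) with an unadjusted p of 0.258 in edgeR, and 0.14 without control 3.

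Kdr and Flt1 lie on the same chromosome and strand, Kdr on chromosome 5 at 75932827 to 75978458 and Flt1 on chromosome 5 at 147561604 to 147726011, both on the minus strand. Their promoter windows, 250 bases before to 50 bases after the RefSeq start on GRCm38.p6, are shown because these are the receptors that endorepellin is known to bind. In capitals are the ETS core, GGAA or its complement TTCC, a motif of factors known to act on endothelial genes, and the cAMP response element, TGACGTCA, which reads the same on both strands.
Flt1 (chr5:147725962-147726261, minus strand): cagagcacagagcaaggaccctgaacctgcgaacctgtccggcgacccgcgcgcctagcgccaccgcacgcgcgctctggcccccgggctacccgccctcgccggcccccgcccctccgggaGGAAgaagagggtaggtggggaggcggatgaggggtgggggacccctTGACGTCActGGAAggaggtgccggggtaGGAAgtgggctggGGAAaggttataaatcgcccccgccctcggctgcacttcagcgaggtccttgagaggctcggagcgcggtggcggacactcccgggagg
Kdr (chr5:75978406-75978705, minus strand): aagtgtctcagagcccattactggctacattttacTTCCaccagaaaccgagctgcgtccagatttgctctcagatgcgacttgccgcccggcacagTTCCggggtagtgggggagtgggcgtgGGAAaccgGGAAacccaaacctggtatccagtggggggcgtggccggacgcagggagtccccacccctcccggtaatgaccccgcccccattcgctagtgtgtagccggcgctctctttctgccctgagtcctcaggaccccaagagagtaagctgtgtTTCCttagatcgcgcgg
The ETS core was found 4 times in the Flt1 window and 5 times in the Kdr window, and 96.0% of the 32851 windows of this length in the RefSeq table hold it. TGACGTCA was found in the Flt1 window and in none of the other 10 windows of the 9 genes, while 1.79% of all windows (588) hold it. The core of the hypoxia response element, ACGTG or its complement CACGT, was in 1 of the 11 windows, a second start of Vegfa, and in 19.6% of all windows. These matches describe letters in a window and show neither binding nor its absence.

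Kdr was at 7.25 CPM in the lowest, 17.1 in the median and 22.5 in the highest induced tumour, and at 22.3, 14.05, 19.9, 11.3 and 15.0 CPM in control tumours 1 to 5. The highest tumours of both groups were at nearly the same level, and induced 7 and induced 3 lay below the lowest control. The means were 15.8 ± 5.18 CPM in induced and 16.5 ± 4.50 CPM in control tumours (SD), a log2 fold change of -0.06 ± 0.25 (SE; unadjusted p = 0.811 and adjusted p = 0.9999 in edgeR). By exact permutation the interval of the difference was -0.75 to 0.54, or 0.595 to 1.45 as a ratio. Without the 4 tumours that lay apart the log2 fold change was 0.069.

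Flt1 had the smallest unadjusted p of the 9 genes and did not pass the adjustment. It was at 13.4 CPM in the lowest, 16.0 in the median and 21.4 in the highest induced tumour, and at 13.7, 11.7, 14.8, 13.6 and 12.3 CPM in control tumours 1 to 5. Every induced tumour lay above the control mean and 4 of 7 lay above the highest control, but the lowest induced tumour, induced 7, lay below 3 of the controls. The means were 16.1 ± 2.82 CPM in induced and 13.2 ± 1.20 CPM in control tumours (SD, n = 7 and n = 5). The log2 fold change was 0.28 ± 0.13 (SE), with an unadjusted p of 0.0486 and an adjusted p of 0.9999 in edgeR. The exact permutation test gave a difference of 0.27 with a 95% interval of 0.02 to 0.53, a ratio of 1.01 to 1.44, and an unadjusted p of 0.0429. The value was 0.28 without the 4 tumours that lay apart, where the unadjusted p was 0.0958. Leaving out single tumours gave 0.20 to 0.33 with unadjusted p-values of 0.0299 to 0.120, the lowest value without induced 2 and the highest p without control 2. The authors' deposited table gave Flt1 a log2 fold change of 0.28 and an unadjusted p of 0.0401. A secreted form of VEGFR1 made by alternative ends of the transcript is known to trap VEGF-A, and counts per gene cannot separate it from the membrane form.

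**Figure D2:**
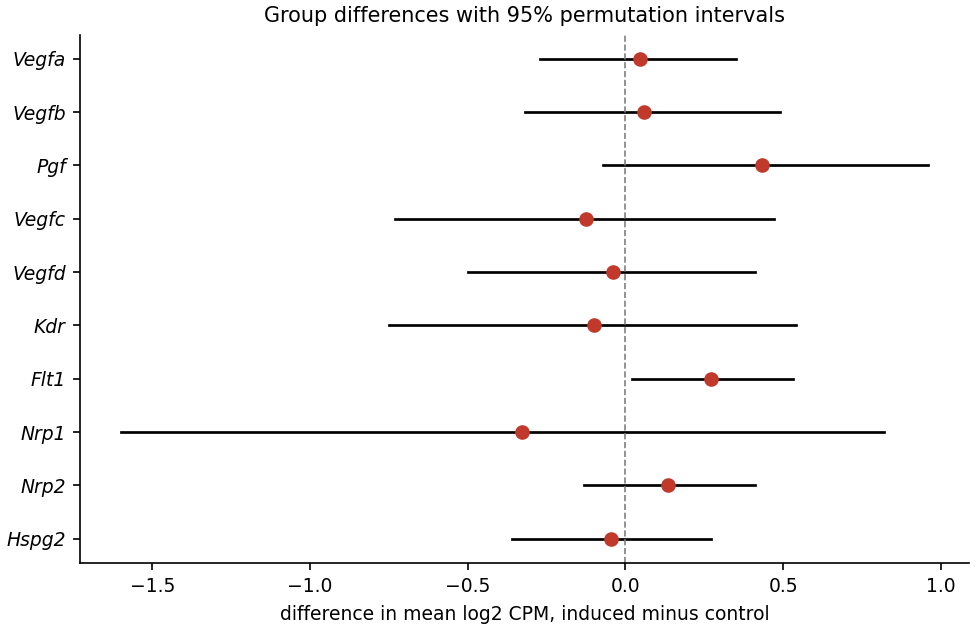
Difference in mean log2 CPM between induced and control tumours (induced minus control, n = 7 and n = 5) for the 9 VEGF genes and Hspg2, with the 95% interval from inverting the exact permutation test. The interval lies above 0 for Flt1 only, at 0.02 to 0.53 before any adjustment over genes, and is widest for Nrp1, at -1.60 to 0.82.

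Ratios within a tumour, which do not depend on the scaling between tumours, were compared by exact permutation over all ways of choosing 5 of 12 tumours and adjusted over the 4 ratios. The smallest p that the design allows is 0.00126. Flt1 relative to the endothelial score, the mean log2 CPM of 18 endothelial marker genes, was 0.79 ± 0.19 in induced and 0.48 ± 0.16 in control tumours on the log2 scale (SD). All 7 induced tumours were above the control mean and 4 were above the highest control. The difference of 0.30 had an interval of 0.08 to 0.54, with p = 0.0202 and an adjusted p of 0.0808 by the exact permutation test. Leaving out single tumours gave differences of 0.26 to 0.36 with unadjusted exact permutation p-values of 0.0121 to 0.0515. The smallest of these p-values came without control 4, where the difference was 0.36 with an adjusted p of 0.0485. Without the 4 tumours that lay apart it was 0.35 with an adjusted p of 0.214 by exact permutation. The 8 tumours left allow fewer splits, so the smallest possible p is larger there than 0.00126. That adjusted p is therefore not comparable with the one over 12 tumours. Kdr relative to the same score was 0.69 ± 0.48 in induced and 0.76 ± 0.32 in control tumours, a difference of -0.07 with an interval of -0.63 to 0.50 (exact permutation p = 0.803). The log2 ratio of Flt1 to Kdr was 0.09 ± 0.45 in induced and -0.28 ± 0.35 in control tumours, and its difference of 0.37 had an interval of -0.16 to 0.91 (exact permutation p = 0.163, adjusted p = 0.217). Induced 7 and induced 3, the tumours with the lowest Kdr, had the highest ratios. The log2 ratio of Pgf to Vegfa was -2.94 ± 0.44 in induced and -3.33 ± 0.29 in control tumours, a difference of 0.39 with an interval of -0.14 to 0.91 (exact permutation p = 0.121, adjusted p = 0.217).

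**Figure D3:**
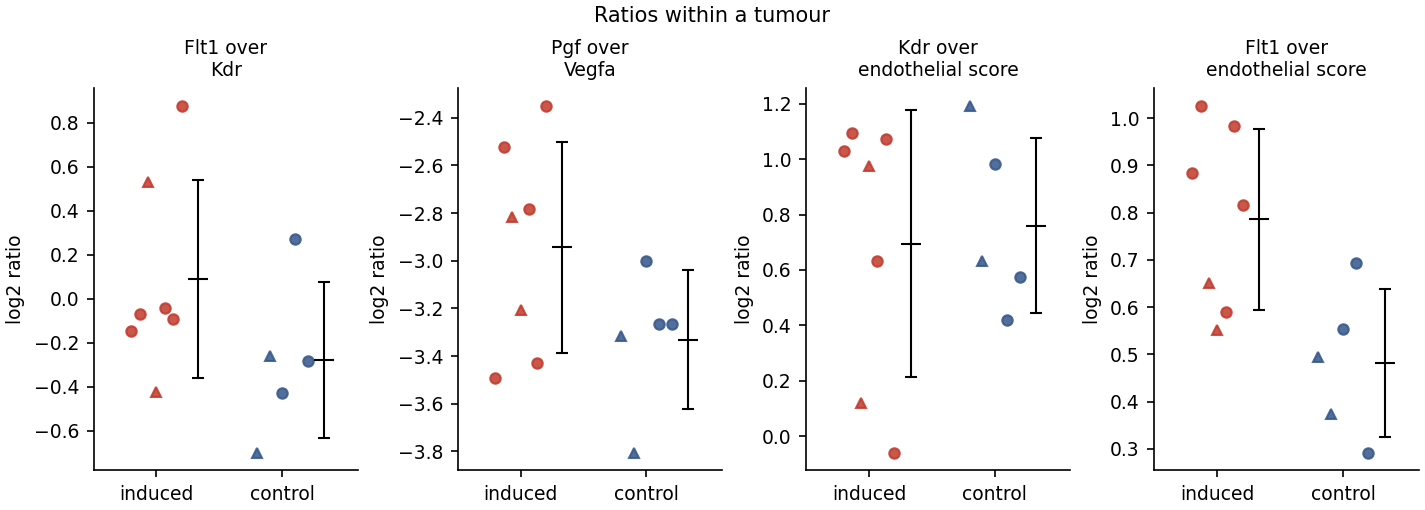
Log2 ratios within each tumour for Flt1 over Kdr, Pgf over Vegfa, and Kdr and Flt1 over the endothelial score; each point is 1 tumour, induced left of control, with the mean ± SD beside the points and triangles for control 1, control 2, induced 3 and induced 4. The axes do not start at 0 and differ in range. Flt1 over the endothelial score has 4 of 7 induced tumours above the highest control, while Kdr over the same score has none.

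Nrp1, a co-receptor of VEGF-A and of semaphorins found on endothelial cells and on many stromal and immune cells, lies on chromosome 8 at 128358604 to 128503363 (plus strand). It was at 2.63 CPM in the lowest, 6.63 in the median and 19.3 in the highest induced tumour, and at 31.1, 6.24, 6.40, 6.31 and 4.81 CPM in control tumours 1 to 5. A single tumour of each group stood far above the others, induced 4 and control 1, and the remaining 10 lay between 2.63 and 7.24 CPM. The means had wide SDs, 7.66 ± 5.35 CPM in induced and 10.98 ± 11.3 CPM in control tumours (SD). The log2 fold change was -0.52 ± 0.53 (SE; unadjusted p = 0.343 in edgeR), with an interval of -1.60 to 0.82 by exact permutation. It was 0.37 without control 1, -0.95 without induced 4 and -0.088 without the 4 tumours that lay apart, so its sign and size rest on these tumours. DESeq2 gave no p for Nrp1, and the authors' deposited table gave a log2 fold change of -0.52 with no p.

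The same 2 tumours had the highest fibroblast and macrophage scores. On the mean log2 CPM of 10 fibroblast genes, induced 4 and control 1 were at 5.41 and 6.82, and the other 10 tumours were at 2.56 to 3.99. For 10 macrophage genes they were at 5.96 and 6.65, with the others at 3.37 to 4.67. Summed over the list, fibroblast genes were at 554 to 2030 CPM in induced and 682 to 3353 CPM in control tumours, with 0 of 10 higher and 10 of 10 lower in the fit and 0 past the threshold. Macrophage genes summed to 149 to 774 CPM in induced and 207 to 1403 CPM in control tumours, with 2 of 10 higher and 8 lower and 0 past the threshold. The part of fibroblasts and macrophages in the Nrp1 values was not tested. Tbxas1, thromboxane A synthase, and Lifr, the receptor of leukaemia inhibitory factor, were the genes most like Nrp1 over the 12 tumours among 10963 ranked genes, with Pearson r of 0.978 and 0.970 on log2 CPM, and 0.953 and 0.871 over the 8 tumours outside the 4.

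**Figure D4:**
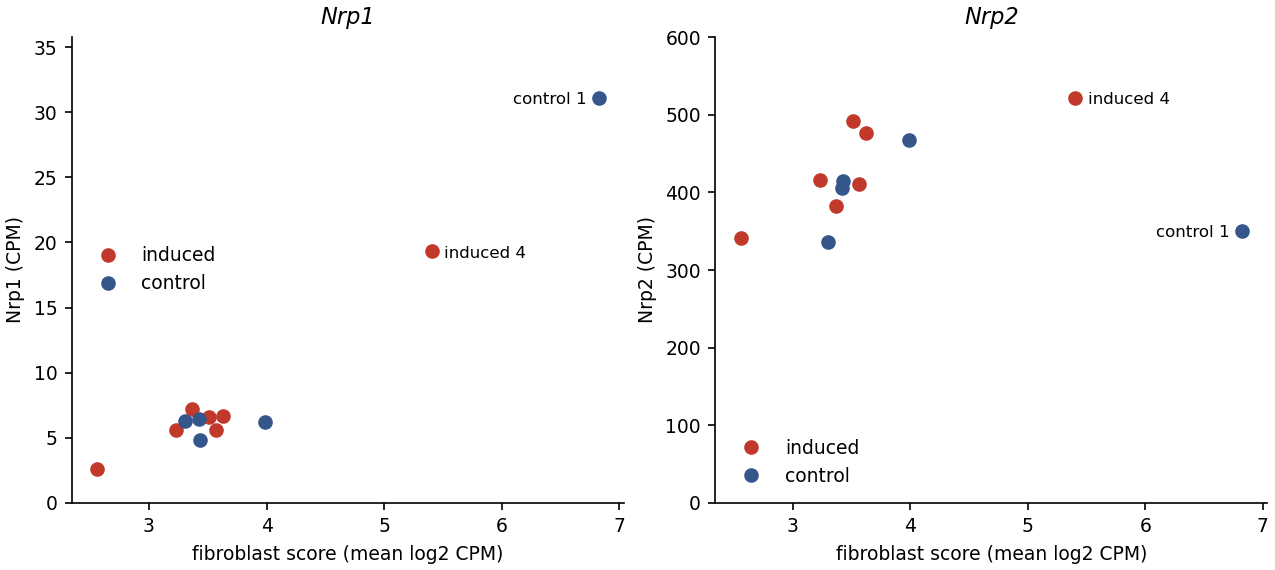
Nrp1 (left) and Nrp2 (right) in CPM against the fibroblast score, the mean log2 CPM of 10 fibroblast genes, with 1 point per tumour (7 induced, 5 control). Induced 4 at 5.41 and control 1 at 6.82 lie apart on the score and hold the 2 highest Nrp1 values, 19.3 and 31.1 CPM. For Nrp2, induced 4 holds the highest value of all tumours, 522 CPM, while control 1 is at 351 CPM, within the range of the other tumours.

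Nrp2, the co-receptor of VEGF-C and of semaphorins on lymphatic and venous endothelium and on many tumour cells, lies on chromosome 1 at 62703285 to 62818695 (plus strand) and had the highest mean level per kilobase of the 9 genes. It was at 341 CPM in the lowest, 416 in the median and 522 in the highest induced tumour, and at 351, 467, 405, 337 and 414 CPM in control tumours 1 to 5. Of the induced tumours, 3 (induced 2, induced 3 and induced 4) were above the highest control. The means were 435 ± 64.5 CPM in induced and 395 ± 52.5 CPM in control tumours (SD), a log2 fold change of 0.14 ± 0.12 (SE; unadjusted p = 0.279 in edgeR). The interval by exact permutation was -0.13 to 0.41, or 0.914 to 1.33 as a ratio, and the log2 fold change was 0.064 without the 4 tumours that lay apart, 0.087 without induced 4 and 0.079 without control 4.

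Levels of different genes were compared per kilobase of exon. Averaged over all 12 tumours, Nrp2 was at 35.3, Vegfb at 28.1, Vegfa at 19.0, Pgf at 3.35, Kdr at 1.78, Vegfd at 1.75, Flt1 at 1.10, Nrp1 at 0.924 and Vegfc at 0.471 CPM per kb. The step from Vegfa to Pgf was the only one between neighbours whose ranges did not overlap, with Vegfa 3.47 to 9.64 times higher within a tumour. Vegfb was above Vegfa in 11 of 12 tumours, the exception being a control, and Nrp2 was above Vegfb in 10 of 12. Kdr and Vegfd could not be ranked, since Kdr was higher in 7 tumours only. Pgf was above Kdr and Vegfd was above Flt1 in all 12 tumours, although their ranges overlapped between tumours. Nrp2 exceeded Nrp1 per kilobase by 22.3 to 107 times in induced tumours (median 60.7) and by 9.31 to 71.2 times in control tumours (median 52.3), the lowest ratio of each group being that of induced 4 and control 1. Kdr per kilobase was 0.81 to 2.01 times Flt1 in induced tumours and 1.24 to 2.43 times Flt1 in control tumours. These levels assume that all annotated exons are used.

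**Figure D5:**
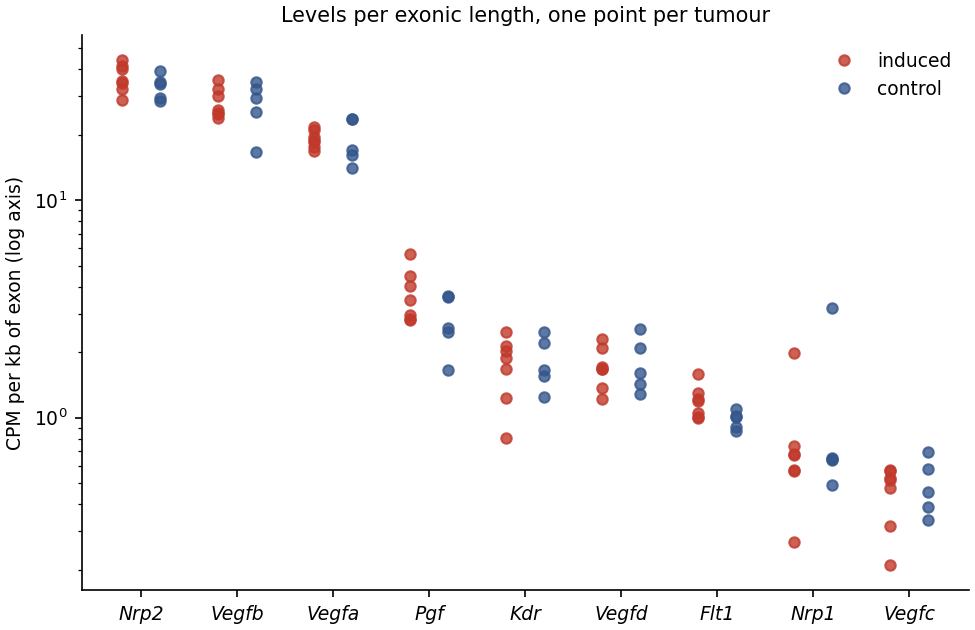
CPM per kilobase of exon on a log axis for the 9 VEGF genes, ordered by their mean over all 12 tumours, with 1 point per tumour (induced left, control right for each gene). Nrp2, Vegfb and Vegfa form a high group between 14.1 and 44.1 CPM per kb, and the other 6 genes lie between 0.210 and 5.63.

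Across the tumours, each of the 9 genes was set against 6 scores (endothelial, hypoxia target, fibroblast, macrophage, leukocyte and skeletal muscle), 54 relations in all. None had an adjusted p under 0.05 by permutation, and 12 had an unadjusted p under 0.05 by Pearson r and 5 by Spearman rho. No share over all tested genes is given here, so these counts cannot be read as an excess among the 9 genes. On the fibroblast and macrophage scores induced 4 and control 1 lay apart, so those relations were computed over the other 10 tumours. Vegfa against the score of 18 hypoxia targets had Pearson r = 0.683 (permutation p = 0.0147, adjusted p = 0.177) and Spearman rho = 0.545 (permutation p = 0.0723, adjusted p = 0.425) over 12 tumours. Without the 2 tumours farthest from the median score r was 0.561, and over the 8 tumours outside the 4 it was 0.857 (exact permutation p = 0.00794, adjusted p = 0.176). Vegfd against the macrophage score had r = 0.728 (permutation p = 0.0164, adjusted p = 0.177) and rho = 0.806 (permutation p = 0.00701, adjusted p = 0.189) over 10 tumours, and r was 0.551 without the farthest 2. Against the fibroblast score Vegfd had much the same values, r = 0.724 (permutation p = 0.00685, adjusted p = 0.177) and rho = 0.806 (permutation p = 0.00693, adjusted p = 0.189), with r = 0.679 without the farthest 2. Nrp2 against the macrophage score had r = 0.743 (permutation p = 0.0133, adjusted p = 0.177) and rho = 0.745 (permutation p = 0.0167, adjusted p = 0.301), with r = 0.567 without the farthest 2. Nrp2 against the fibroblast score had r = 0.720 (permutation p = 0.0127, adjusted p = 0.177) and rho = 0.673 (permutation p = 0.0387, adjusted p = 0.425), with r = 0.640 without the farthest 2. Nrp1 against the fibroblast score over the same 10 tumours had r = 0.773 (permutation p = 0.0416, adjusted p = 0.212) but rho = 0.273 (permutation p = 0.447, adjusted p = 0.695) and r = 0.111 without control 2 and induced 7, so it rests on those tumours. Kdr against the endothelial score had r = 0.551 and Flt1 against it r = 0.430, with adjusted permutation p-values of 0.250 and 0.352, and rho was 0.406 and 0.552, with adjusted permutation p-values of 0.516 and 0.425. The relations not yet named whose r had an unadjusted permutation p under 0.05 each had an adjusted p of 0.212 for r. Negative were Kdr with hypoxia targets (r = -0.612, rho = -0.559) and Pgf with the leukocyte and fibroblast scores (r = -0.625 and -0.661, rho = -0.503 and -0.164). Over the 8 tumours outside the 4 their r was -0.722, -0.322 and -0.443, in that order. Pgf with the fibroblast score had r = 0.688 without control 2 and induced 7. Positive were Kdr with the macrophage score (r = 0.697, rho = 0.455), Vegfd with the endothelial score (r = 0.589, rho = 0.566) and Nrp1 with the leukocyte score (r = 0.569, rho = 0.224). Over the 8 tumours outside the 4 their r was 0.841, 0.708 and 0.254, in that order.

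Likeness of pattern was described by Pearson r of log2 CPM over the 12 tumours, with no test. Vegfb was most like Imp3 (r = 0.974) and Mgat4b (r = 0.968), and Pgf was most like Gnb1l (r = 0.917) and Atmin (r = 0.871). Kdr was most like P2rx4, an ATP-gated channel (r = 0.914), and Tnfsf10, the death ligand TRAIL (r = 0.901), while Flt1 was most like Slc17a5, a lysosomal sialic acid exporter (r = 0.884), and Sumf1, a sulphatase-activating enzyme (r = 0.816). Vegfa was most like Espn (r = 0.837) and Tmem70 (r = 0.816). Vegfd was most like Mfap3 (r = 0.907) and Efcab14 (r = 0.894), Vegfc most like Lca5 (r = 0.885) and Smarcd3 (r = 0.880), and Nrp2 most like Ing5 (r = 0.881) and Selenoi (r = 0.876). No member of the family was among the 2 genes most like another member. Within the family, r over 12 tumours ran from -0.850 (Vegfb and Nrp1) to 0.613 (Vegfb and Pgf). Over the 8 tumours outside the 4 it ran from -0.688 (Pgf and Nrp1) to 0.921 (Vegfd and Nrp2). Kdr and Flt1 had r = 0.408 with each other over 12 tumours and 0.658 over the 8 outside the 4.

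Genes that work with the receptors gave no calls either. Of the other receptor partners and co-receptors, such as heparan sulphate proteoglycans and integrins, 11 of 12 were tested, 4 higher and 7 lower in the fit, with 0 past the threshold and a median log2 fold change of -0.03. Sdc2, a syndecan that presents heparin-binding growth factors, was at 86.7 ± 13.3 CPM in induced and 72.8 ± 2.86 CPM in control tumours (log2 fold change 0.25 ± 0.10 SE, unadjusted p = 0.0307 and adjusted p = 0.9999 in edgeR). Of 27 genes of VEGF receptor signalling 15 were higher and 12 lower, with 0 past the threshold and a median of 0.03. Plcg2, a phospholipase best known from blood cells, was at 4.60 ± 2.63 CPM in induced and 10.4 ± 8.10 CPM in control tumours (log2 fold change -1.17 ± 0.43 SE, unadjusted p = 0.0179 in edgeR). Without control 1 the value for Plcg2 was -0.57 with an unadjusted p of 0.133, and without the 4 tumours that lay apart it was -0.83 with an unadjusted p of 0.00996. Sh2d2a, the adaptor TSAd, was at 2.61 ± 0.40 CPM in induced and 4.08 ± 2.75 CPM in control tumours (log2 fold change -0.64 ± 0.31 SE, unadjusted p = 0.0596 in edgeR). The value for Sh2d2a rested on control 1, being -0.14 without it and -0.13 without the 4 tumours. Beside these values, 0 of 7 leukocyte markers were higher and 7 were lower, with 0 past the threshold and summed levels of 75.5 to 251 CPM in induced and 133 to 572 CPM in control tumours, and S100a9, a neutrophil gene, was at 3.31 ± 1.96 CPM in induced and 15.8 ± 18.2 CPM in control tumours. For S100a9 the log2 fold change was -2.25 ± 0.63 (SE), -1.26 without control 2 and -1.28 without the 4 tumours. The part of blood cells in the levels of Plcg2 and Sh2d2a was not tested.

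The 13 genes known to be induced by VEGF in endothelial cells were split into 4 higher and 9 lower, with 0 past the threshold and a median log2 fold change of -0.19, beside -0.00083 over all genes tested. Icam1, an adhesion molecule for leukocytes, was at 18.0 ± 7.26 CPM in induced and 26.6 ± 9.64 CPM in control tumours (log2 fold change -0.56 ± 0.28 SE, unadjusted p = 0.0624 in edgeR). Nr4a1, an immediate early transcription factor, was at 15.0 ± 1.52 CPM in induced and 17.3 ± 1.59 CPM in control tumours (log2 fold change -0.21 ± 0.10 SE, unadjusted p = 0.0654 in edgeR), and its log2 fold change was -0.13 without the 4 tumours that lay apart. Both overlapped between the groups. Over the 13 genes the log2 fold changes ran from -0.59 to 0.41. The part of leukocytes and other cells in these levels was not tested.

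Of 9 tested semaphorins and plexins, the other ligands and partners of neuropilins, 2 were higher and 7 lower, with 0 past the threshold and a median of -0.06. Plxna2, a semaphorin receptor, was at 3.48 ± 0.97 CPM in induced and 2.32 ± 0.54 CPM in control tumours (log2 fold change 0.58 ± 0.24 SE, unadjusted p = 0.0305 in edgeR). Sema3a, a repellent ligand of Nrp1, was at 3.64 ± 2.14 CPM in induced and 6.36 ± 5.75 CPM in control tumours, with a log2 fold change of -0.81 ± 0.55 (SE) that was 0.50 without the 4 tumours that lay apart, -0.46 without control 1 and -0.37 without control 2.

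The oxygen-sensing genes, which act upstream of Vegfa, were split into 5 higher and 4 lower of 9, with 0 past the threshold and a median of 0.00228, and Hif1a, the hypoxia-inducible factor, was at 294 ± 42.8 CPM in induced and 317 ± 65.8 CPM in control tumours. Of 18 hypoxia targets 7 were higher and 11 lower, with 0 past the threshold and a median of -0.02. Pfkfb3, a regulator of glycolysis, was at 36.4 ± 7.66 CPM in induced and 47.6 ± 22.1 CPM in control tumours (log2 fold change -0.39 ± 0.24 SE, unadjusted p = 0.135 in edgeR). Without control 1 the value for Pfkfb3 was -0.11, and without the 4 tumours it was -0.016. Of 18 endothelial markers 7 were higher and 11 lower, with 0 past the threshold, a median of -0.06 and summed levels of 297 to 383 CPM in induced and 303 to 395 CPM in control tumours. Ecscr, a surface protein of endothelial cells, had levels of 8.07 ± 1.67 CPM in induced and 10.99 ± 1.89 CPM in control tumours (log2 fold change -0.45 ± 0.17 SE, unadjusted p = 0.0229 in edgeR). Of 7 pericyte markers 3 were higher and 4 lower, with 0 past the threshold and a median of -0.05. Of the lymphatic markers only Flt4, Pdpn and Lyve1 passed the filter, and Prox1, Ccl21a, Reln and Mmrn1 were not tested.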

How the data were processed

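RNA from 12 mouse tumours (7 induced, 5 control) was made into libraries with a SMARTER mRNA-seq kit and sequenced, per the labels' protocols. The build was GRCm38 (mm10), per the submitters' processing notes; for the aligner, counting tool and strand setting, "not given in the sources used here" applies. Raw counts were deposited for each Ensembl ID, per the file headers, and were all whole numbers. The deposited rlog values, on a log2 scale, were not used. Also deposited were the authors' log2 fold changes, signed fold values and p-values, from a test that these sources do not name.

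Counts were analysed with edgeR 4.0.16 (R 4.3.3): filterByExpr by group with a minimum count of 10 kept 15199 genes and dropped 9917. After TMM scaling, the groups were compared with the two-sided quasi-likelihood F test in its robust form. Adjustment was by Benjamini-Hochberg over every gene tested, at a threshold of 0.05. CPM values use TMM factors, and log2 CPM a prior count of 2. The coefficient of biological variation was 32.1%. Single values and ratios were compared by two-sided exact permutation over all splits, with 95% intervals by inversion in steps of 0.01. Relations used 100000 resamples, and exact enumeration over 8 tumours; a gap over 30% of the range, chosen after the scores were seen, marked separate clusters. Members of the family were left out of all scores. The p-values measure the spread between these tumours, since no label says how they relate to mice beyond being separate samples. No pair of tumours within a group agreed within sampling noise (chi-square per gene 13.3 to 214).

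Gene positions and exon lengths came from GENCODE M21, and promoters from RefSeq (GRCm38.p6). Of the 9 genes, Nrp1 alone shared exonic bases with another gene, the 80 bases of Mir1903. The named genes are the 9 members, Hspg2, up to 4 genes per list with the smallest p, and the 2 genes most like each member with mean log2 CPM over 1. Markers used to check the tissue were named besides. The members and the gene lists were chosen with earlier results of these data known. Alternatives were other size factors, filters and tools (DESeq2 1.42.0, limma-voom 3.58.1), a block for the replicate number, removal of each tumour, and removal of, or a term for, the 4 tumours that lay apart. The fit was tested on simulated data, in which 7 of 14690 unchanged genes were called.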

Additional observations from a re-analysis of the deposited data

Results flagged for a closer look

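Nrp1 in induced 4 stood apart from the other induced tumours. It was at 19.3 CPM, and its gap to the nearest induced tumour was 0.724 of the range of the group. Nrp1 in control 1 stood apart from the other control tumours at 31.1 CPM, with a gap of 0.939 of the range. These were the 2 values that stood out among 28 groups of values examined, of which chance marks about 1 in 20.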

How the results depend on the processing

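Under every alternative the number of genes, of VEGF genes and of pathway genes past the threshold was 0, and 0 of 54 relations passed with Spearman rho or without the 4 tumours that lay apart. Over the alternatives, 589 values kept their direction and side of the threshold and 43 changed sign. Without the 4 tumours, log2 fold changes were -0.065 for Vegfa, -0.12 for Vegfb, 0.18 for Vegfd, 0.069 for Kdr, 0.50 for Sema3a and 0.22 for Lum (-2.92 with them), and Kdr over the endothelial score differed by 0.095. With a term for the 4 tumours they were -0.0013 for Vegfa and 0.020 for Vegfd. With limma-voom quality weights they were -0.092 for Vegfa, -0.077 for Vegfb, 0.15 for Vegfd and 0.10 for Kdr. The cause was not tested.

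Leaving out single tumours gave -0.080 to 0.12 for Vegfa, -0.12 to 0.12 for Vegfb, -0.22 to 0.047 for Vegfc, -0.17 to 0.094 for Vegfd, 0.28 to 0.54 for Pgf, -0.18 to 0.064 for Kdr, 0.20 to 0.33 for Flt1, -0.95 to 0.37 for Nrp1, 0.079 to 0.20 for Nrp2, -0.11 to 0.037 for Hspg2, -0.18 to 0.0091 for Hif1a and -4.40 to 0.84 for Lum. The ratios differed by 0.24 to 0.51 for Flt1 over Kdr, 0.27 to 0.48 for Pgf over Vegfa, -0.15 to 0.060 for Kdr and 0.26 to 0.36 for Flt1 over the endothelial score. For the last, unadjusted exact permutation p-values ran from 0.0121 to 0.0515. The smallest was without control 4, at a difference of 0.36 with an adjusted p of 0.0485.

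Replicate numbers did not pair the tumours: deviations of same-numbered tumours correlated at -0.29, -0.55, -0.53, -0.60 and 0.37 for numbers 1 to 5, and only the number 5 tumours correlated best with their own number. With the replicate block 0 genes passed and 108 had an unadjusted p under 0.05, against 324 without it, and values were 0.11 for Vegfd, 0.11 for Kdr, 0.046 for Hspg2 and 0.0097 for Kdr over the endothelial score. Vegfc had the fewest counts, 10 to 41 per tumour.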

Other observations

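Of 9 skeletal muscle genes tested 4 were higher and 5 lower in induced tumours, with summed levels of 18.2 to 506 CPM in induced and 8.67 to 595 CPM in control tumours. Adipocyte genes were split into 1 higher and 6 lower of 7, with summed levels of 43.6 to 146 CPM in induced and 38.0 to 213 CPM in control tumours. All 5 erythrocyte genes tested were higher in the fit, with summed levels of 22.1 to 467 CPM in induced and 74.9 to 156 CPM in control tumours. Their mean log2 CPM ran from 1.55 in induced 1 to 5.69 in induced 5. The controls lay inside that range, at 3.19 to 4.16, so the direction was not shared by all induced tumours. Of 3 epithelial genes tested 2 were higher and 1 lower. None of these genes passed the threshold in edgeR. Lum, a collagen-binding proteoglycan of fibroblasts, was at 0.153 to 10.0 CPM in induced and 0.518 to 76.1 CPM in control tumours, where control 1 held the highest value.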
